A study of Drosophila melanogaster with 18 samples.

Results

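Autophagy is the pathway by which a cell wraps part of its own contents in a double membrane and delivers them to the lysosome for breakdown. Described here are 10 autophagy genes of Drosophila melanogaster, taken by their names from the deposited tables of 17658 genes. The rule names genes of the pathway and uses no measured value, but the genes were chosen with earlier results of these data known. They are Atg1, Atg13, Atg17 and Atg101 (the Atg1 kinase complex), Atg9, Atg2 and Atg18a (membrane delivery to the growing autophagosome), Atg8a and Atg8b (the ubiquitin-like proteins attached to its membrane) and ref(2)P (the cargo receptor). The labels of the study name a hypoxia response and the RNA-binding protein Tudor-SN, and these genes were followed over both.

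Each library was made from a pool of 10 whole females aged 1 to 5 days, and each of 6 groups had 3 such pools (18 libraries). Knockdown flies were w;;Da-GAL4/UAS-Tudor-SN RNAi, in which daughterless-GAL4 drives a hairpin against Tudor-SN in nearly all tissues. Control flies were w;;+/UAS-Tudor-SN RNAi, so all 6 groups carried the RNAi transgene, a Bloomington stock, and the controls lacked a driver. Flies of each genotype were held in room air (normoxia), or for 6 h in 6% O2 or 2% O2. No group with only the driver was analysed here, and an effect of the driver or of its chromosome cannot be told apart from that of the knockdown.

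As background, the kinase Atg1 acts with Atg13, Atg17 and Atg101 to start an autophagosome, and the kinase TOR holds this complex back when nutrients are plentiful. Atg9 vesicles and the lipid transfer protein Atg2, recruited with Atg18a, then supply membrane. Atg8a is conjugated to a lipid of that membrane, where it binds receptors such as ref(2)P (the fly p62), and part of the Atg8a and ref(2)P protein is degraded along with the cargo. A transcript level therefore gives no measure of how fast autophagosomes are made or broken down.

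Levels are FPKM, fragment counts corrected for transcript length and library size, divided by a scaling factor per library (0.945 to 1.03). Between 12525 and 12951 genes were above 0, and FPKM summed to 876999 to 1000923. Depth in reads is unknown, since such values hold no totals. The steps between low values put relative depth at 0.966 to 1.01 in 17 libraries and at 0.877 in knockdown 2% O2 replicate 3, which also received the lowest weight when libraries were weighted by their spread (0.260). Tudor-SN itself was at 9.28% of the control mean in knockdown flies in normoxia, 7.33% at 6% O2 and 3.32% at 2% O2. Of 7 male markers, SP and Mst84Da were at 0 in all 18 libraries, and dj and ocn were above 0 in 1 library each. Mst87F reached at most 0.671 FPKM. The RNA roX1 was above 0 in all 18 libraries (at most 1.37 FPKM) and roX2 in 9 (at most 0.487). A gene was called where its limma p, adjusted by Benjamini-Hochberg over 9921 tested genes, was under 0.05. Each change is a difference in log2(scaled FPKM + 1), given ± SE with 3 libraries per group. The SE comes from a spread per gene shared over all 6 groups, not from the compared groups alone. The p-value weighs the change against this spread between pools of flies.

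Expression of the 10 genes spanned several orders of magnitude, and Atg8a and ref(2)P far exceeded the rest. On the length-corrected FPKM scale, the mean over 18 libraries was 407 for Atg8a and 220.4 for ref(2)P. The next were Atg18a (42.2), which binds the lipid PI3P, the scaffold Atg13 (41.7) and the kinase Atg1 (34.9). Below these lay the scaffold Atg17 (26.3), the membrane protein Atg9 (19.3), the Atg13 partner Atg101 (17) and Atg2 (13.7). Atg8a was above ref(2)P in each library. From Atg18a downward the ranges over the 18 libraries of neighbouring genes in this order overlapped, except those of Atg13 (lowest 38.5) and Atg1 (highest 37.8). Together Atg8a and ref(2)P made up 81.0% to 83.1% of the summed FPKM of the 10 genes in knockdown flies at 2% O2, 77.0% to 78.5% in control flies at 2% O2, and 72.8% to 75.1% in the 12 other libraries.

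Atg8b, the paralogue of Atg8a known for expression in the male germ line, was almost undetected in these females. It was above 0 in 6 of 18 libraries, with a mean of 0.0631 FPKM. Its deposited values lay close to 1 or 2 multiples of 0.122 FPKM once relative depth was counted in, the step between its low values. All 3 knockdown libraries at 6% O2 were among the 6 (0.239, 0.118 and 0.237 scaled FPKM), beside 1 control library of 3 at 6% O2 (0.124). Its mean was under the minimum of 1 FPKM, so 9 of the 10 genes were tested. Atg8b lies on chromosome 3R, 17724410 to 17725063 (BDGP6, minus strand), and its annotated exons total 654 bases.

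**Figure D1:**
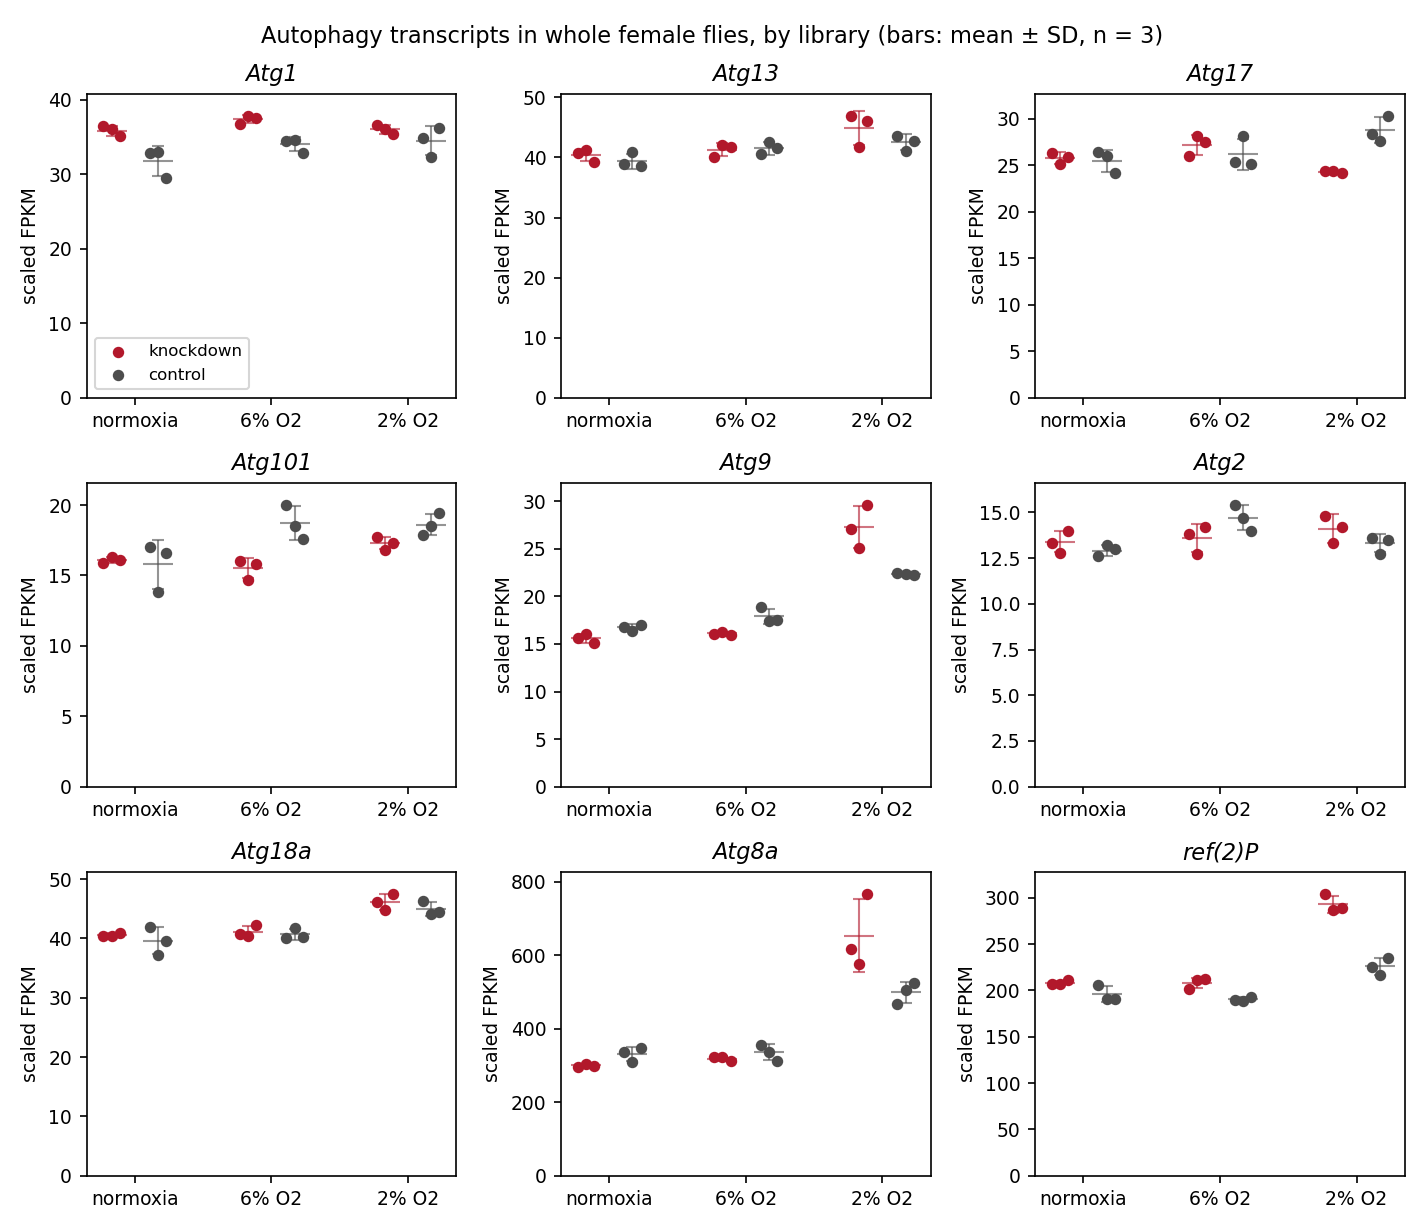
Scaled FPKM of the 9 tested autophagy genes (vertical axis, from 0) in each library, by oxygen level (horizontal axis), knockdown in red left of control in grey, with bars for the mean ± SD of 3 libraries. Atg8a, Atg9 and ref(2)P stand highest at 2% O2, and highest of all in knockdown flies (means of 654, 27.3 and 293), while the other 6 genes differ by at most 0.23 (log2) between oxygen levels.

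After 6 h at 2% O2, 4 genes rose in both genotypes, Atg8a most, then Atg9, with smaller changes of ref(2)P and Atg18a. In knockdown flies 5 of 9 tested genes were called higher at 2% O2 than in normoxia and 0 lower, and 28.5% of all tested genes were called higher and 27.0% lower. In control flies 6 of 9 were called higher and 0 lower, beside 15.4% of all tested genes higher and 14.7% lower. The median change over the 7 initiation and membrane-delivery genes was 0.09 in knockdown flies and 0.17 in control flies. For all tested genes it was 0.00 and -0.01, a median that the scaling holds near 0. Regardless of sign, the median change of the 9 tested genes was 0.15 in knockdown flies, against 0.25 for all tested genes. In control flies these medians were 0.18 and 0.15. The split of all calls in knockdown flies depended on scaling: 51.4% of them were higher as given, 41.3% with FPKM as deposited and 38.6% with quantile normalisation. In whole flies, a change in the cells' number or in RNA per cell cannot be told apart.

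Atg8a (FBgn0052672, chromosome X, 10764878 to 10768338, minus strand, BDGP6) had 618, 576 and 767 scaled FPKM in the 3 knockdown libraries at 2% O2, against 297, 305 and 298 in normoxia. In control flies it had 468, 505 and 526 at 2% O2, against 337, 309 and 347 in normoxia. Each library at 2% O2 was above each library in normoxia, and the knockdown value of 767 stood above the other two. The mean at 2% O2 was 218% of the normoxia mean in knockdown flies and 151% in control flies. These are log2 changes of 1.11 ± 0.0838 (limma adjusted p = 3.95e-08) and 0.59 ± 0.0838 (adjusted p = 7.96e-05). Without the library at 767, the shallower knockdown replicate 3, the knockdown change was 0.99.

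Atg9 (FBgn0034110, chromosome 2R, 16294400 to 16297232, plus strand) encodes the one multi-pass membrane protein among the core Atg proteins. It had 27.1, 25.1 and 29.6 scaled FPKM in knockdown flies at 2% O2, against 15.6, 16.0 and 15.1 in normoxia. In control flies it had 22.5, 22.4 and 22.2 at 2% O2, against 16.8, 16.4 and 17 in normoxia. The control libraries at 2% O2 lay within a narrow band, and neither genotype's oxygen groups overlapped. Knockdown flies changed by 0.77 ± 0.0551 (limma adjusted p = 2.45e-08). The control change was 0.40 ± 0.0551 (adjusted p = 6.83e-05).

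The cargo receptor ref(2)P (FBgn0003231, chromosome 2L, 19542468 to 19545548, plus strand) had 304, 287 and 289 scaled FPKM in knockdown flies at 2% O2, against 207, 207 and 211 in normoxia. In control flies it had 225, 217 and 235 at 2% O2, against 206, 191 and 190.5 in normoxia. The oxygen groups did not overlap in either genotype, though in control flies the gap between them was small. In knockdown flies the change was 0.49 ± 0.0424 (limma adjusted p = 1.57e-07). It was 0.20 ± 0.0424 in control flies (adjusted p = 0.00184). The last 173 of its 2395 exonic bases overlap the gene CG10337 on the opposite strand, and the labels do not state whether reads were assigned by strand.

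Among the other initiation genes changes at 2% O2 were small. Atg18a rose to a similar degree in both genotypes, with means of 46.2 scaled FPKM at 2% O2 and 40.6 in normoxia in knockdown flies (0.18 ± 0.0432, limma adjusted p = 0.00212), and of 45.0 and 39.6 in control flies (0.18 ± 0.0432, adjusted p = 0.00482). With FPKM as deposited the knockdown change was 0.10 (adjusted p = 0.0593). Atg13 was called higher in knockdown flies (0.15 ± 0.0474, adjusted p = 0.0141), a call lost with FPKM as deposited (0.07), in a fit of the compared groups alone, and without any of knockdown normoxia replicate 3 (0.13), 2% O2 replicate 1 (0.12) or 2% O2 replicate 3 (0.13). In control flies its change was 0.11 (adjusted p = 0.107).

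Atg17, the fly counterpart of the mammalian scaffold FIP200, gave values of opposite sign in the genotypes at 2% O2. It had 24.4, 24.4 and 24.2 scaled FPKM in knockdown flies at 2% O2, against 26.3, 25.1 and 25.9 in normoxia, a change of -0.08 ± 0.0535 (limma adjusted p = 0.225). In control flies it had 28.4, 27.6 and 30.3 at 2% O2, against 26.4, 26.0 and 24.2 in normoxia, and was called higher (0.17 ± 0.0535, adjusted p = 0.0281). The knockdown value passed as lower with FPKM as deposited (-0.16, adjusted p = 0.0286) and with quantile normalisation (-0.13, adjusted p = 0.0457). The control call was lost with FPKM as deposited (0.14), in a fit of the compared groups alone, and without control normoxia replicate 3 (0.13) or 2% O2 replicate 1 (0.18) or 3 (0.13).

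Atg101 was called higher in control flies at 2% O2 (0.23 ± 0.0703, limma adjusted p = 0.0233), with 17.9, 18.5 and 19.4 scaled FPKM, against 17, 13.8 and 16.6 in normoxia. The lowest of these was normoxia replicate 2. Without it the change was 0.14 (adjusted p = 0.124), and the call was also lost without 2% O2 replicate 2 (0.23) or 3 (0.20) and in a fit of the compared groups alone. In knockdown flies the change was 0.09 (adjusted p = 0.278). Atg1 changed by 0.01 in knockdown and 0.11 in control flies and Atg2 by 0.07 and 0.04, none of which passed the test (adjusted p = 0.0981 to 0.919).

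**Figure D2:**
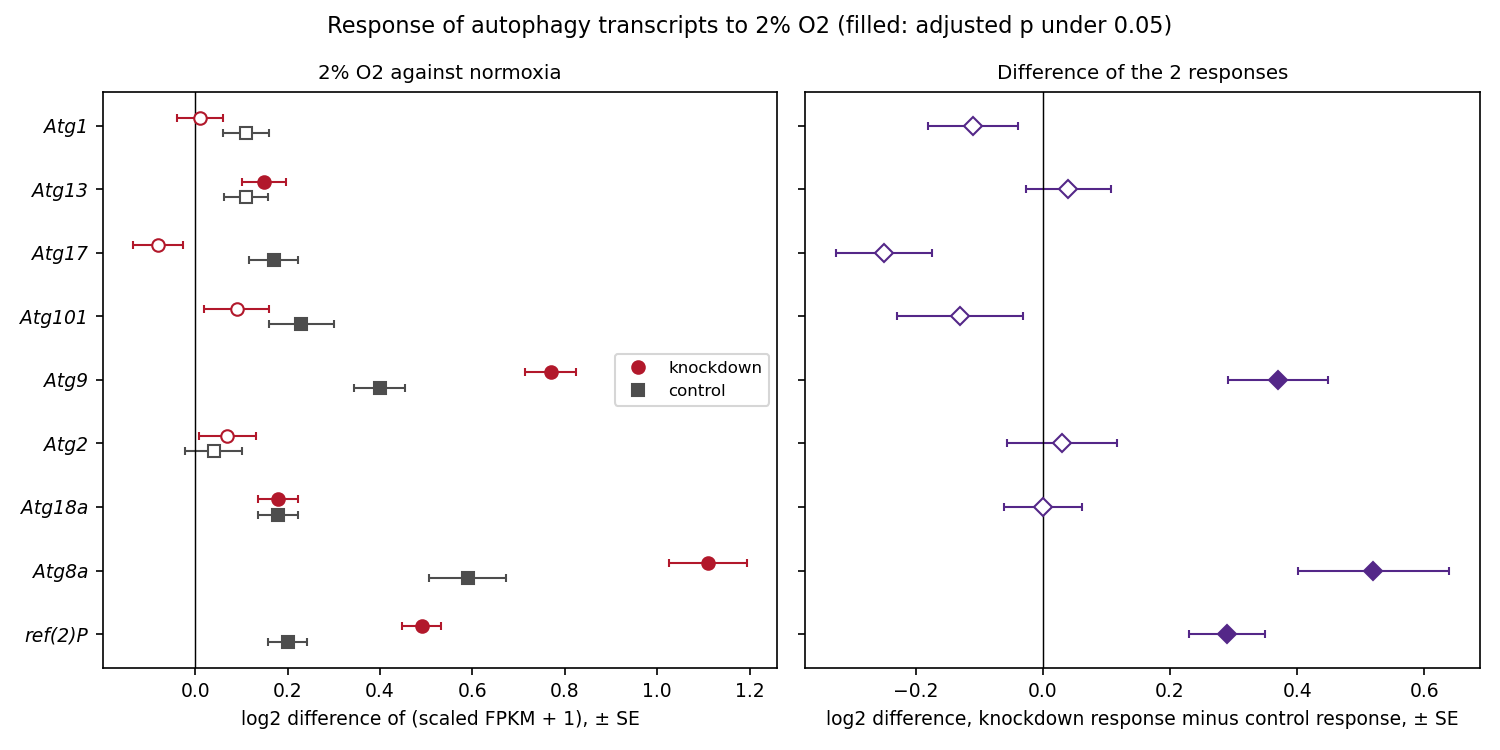
Left, log2 difference of scaled FPKM plus 1 between 2% O2 and normoxia (horizontal axis, ± SE) for each tested gene, in knockdown (red circles) and control flies (grey squares). Right, the difference of these responses, knockdown minus control. Filled symbols passed an adjusted p under 0.05, and on the right only Atg9 (0.37), Atg8a (0.52) and ref(2)P (0.29) are filled.

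The rise at 2% O2 was larger in knockdown than in control flies for the same 3 genes. A larger response in knockdown flies was not particular to them. Over all tested genes the median absolute change at 2% O2 was 0.25 in knockdown and 0.15 in control flies, with 5499 and 2988 genes called. In the test of the difference itself, 3 of 9 were called with a higher response in knockdown flies, beside 5.43% of all tested genes, and 0 with a lower one, beside 2.21%. The difference was 0.52 ± 0.119 for Atg8a (limma adjusted p = 0.0167), 0.37 ± 0.0780 for Atg9 (adjusted p = 0.0106) and 0.29 ± 0.0599 for ref(2)P (adjusted p = 0.0105). The split of all calls moved with scaling, with 71.1% of them higher as given, 58.8% with FPKM as deposited and 44.8% with quantile normalisation. The ref(2)P call was lost with quantile normalisation (0.16, adjusted p = 0.135) and the Atg8a call without control 2% O2 replicate 1 (0.47, adjusted p = 0.0546), the lowest control library at 2% O2.

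For the 6 others the difference did not pass. Atg17 was nearest (-0.25 ± 0.0757, limma adjusted p = 0.0599), and it passed with FPKM as deposited, with quantile normalisation, with library weights and without control 2% O2 replicate 2 (-0.27, adjusted p = 0.0462). Atg1, Atg101, Atg13, Atg2 and Atg18a had differences between -0.13 and 0.04 (adjusted p = 0.355 to 0.997). The 95% interval for Atg18a ran from -0.13 to 0.13. Without knockdown 2% O2 replicate 3 the differences were 0.40 for Atg8a, 0.31 for Atg9 and 0.30 for ref(2)P, and all 3 passed.

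Other measures also differed with oxygen and genotype. The marker counts at 2% O2 stand beside 28.5% of all tested genes higher and 27.0% lower in knockdown flies. In control flies these shares were 15.4% and 14.7%. Marker counts near these shares are not read as a change in tissue make-up. Tudor-SN also fell at 2% O2, to 5.57 scaled FPKM in knockdown flies, against 19.9 in normoxia, and to 168 in control flies, against 214 in normoxia. Of 6 eye and neuron markers 3 rose at 2% O2 in knockdown flies and 0 in control flies, with summed levels of 2139 to 2346 in knockdown flies at 2% O2 and 1557 to 1761 in normoxia, and 2254 to 2498 and 1683 to 2292 in control flies. Of 8 germline markers 2 rose and 4 fell in knockdown flies, and 1 rose and 2 fell in control flies. Their summed levels were 1167 to 1333 in knockdown flies at 2% O2 and 1336 to 1353 in normoxia, and 1157 to 1201 and 1112 to 1227 in control flies. Of 6 tested yolk and fat-body markers 2 rose and 1 fell in knockdown flies, and 1 rose and 0 fell in control flies. With Fbp1, above 0 in 3 of 18 libraries, they summed to 3051 to 4990 in knockdown flies at 2% O2 and 2228 to 3151 in normoxia, and to 2064 to 2741 and 1503 to 2915 in control flies. Between genotypes at 2% O2, 2 yolk and fat-body markers were higher and 3 eye and neuron markers lower in knockdown flies. Of 8 germline markers 1 was higher and 1 lower, and 1 haemocyte marker was higher. Of all tested genes 11.7% were higher and 8.50% lower between the genotypes at 2% O2. Of 3 tested haemocyte markers 2 rose at 2% O2 in knockdown flies, with sums of 13.74 to 19.82 at 2% O2 and 9.043 to 10.36 in normoxia, and 1 rose and 1 fell in control flies, with sums of 10.85 to 13.42 and 9.265 to 12.6. Of 5 tested gut markers 2 rose and 0 fell in knockdown flies, with sums of 2799 to 3714 at 2% O2 and 2259 to 3120 in normoxia, and 2 rose and 1 fell in control flies, with sums of 3219 to 3499 and 3234 to 4122. Of 7 muscle markers 1 rose in knockdown flies (1427 to 2407 at 2% O2 and 1507 to 1951 in normoxia) and 0 in control flies (2071 to 2663 and 1821 to 3715). In the difference of responses to 2% O2, 3 germline markers were lower and 1 gut marker higher, beside 2.21% of all tested genes lower and 5.43% higher. In normoxia 3 muscle, 3 gut and 2 eye and neuron markers were lower and 2 germline markers higher in knockdown flies. The shares of all tested genes there were 10.1% lower and 5.90% higher. The part of these measures in the changes of the autophagy genes was not tested.

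At 6% O2 none of the 9 tested genes passed the test against normoxia. In knockdown flies 0 were called higher and 0 lower, beside 0.585% and 0.0403% of all tested genes, and 0 of the 9 had an unadjusted limma p under 0.05. In control flies 0 were called in either direction, as were 0% of all tested genes higher and 0% lower, and 2 of 9 had an unadjusted p under 0.05. These were Atg101 (0.23 ± 0.0703, adjusted p = 0.191) and Atg2 (0.17 ± 0.0611, adjusted p = 0.254). Atg8a changed by 0.09 in knockdown flies (95% interval -0.09 to 0.27) and by 0.02 in control flies (-0.16 to 0.20), intervals that end below the change of each genotype at 2% O2. The difference of responses to 6% O2 called 0 of 9 in either direction, beside 0% of all tested genes higher and 0% lower. Its largest value was -0.29 for Atg101 (adjusted p = 0.357).

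Set against 6% O2, Atg8a, Atg9, ref(2)P and Atg18a were again higher at 2% O2 in both genotypes. In knockdown flies 5 of 9 genes were called higher and 1 lower, beside 26.2% and 25.5% of all tested genes, with Atg8a at 1.02, Atg9 at 0.73 and ref(2)P at 0.49. Atg18a (0.16) and Atg13 (0.12) were the other higher calls and Atg17 (-0.15) the lower one. With FPKM as deposited both of these higher calls were lost, at 0.08 for Atg18a (adjusted p = 0.142) and 0.03 for Atg13 (adjusted p = 0.625). The Atg13 call was lost without 5 of 6 libraries, all but knockdown 2% O2 replicate 2 (limma adjusted p up to 0.188), and the Atg17 call without knockdown 6% O2 replicate 2 or 3 or 2% O2 replicate 1 or 3 (up to 0.0992) and in a fit of the compared groups alone. In control flies 4 of 9 were called higher and 0 lower, beside 16.9% and 15.2% of all tested genes. These were Atg8a (0.57), Atg9 (0.30), ref(2)P (0.24) and Atg18a (0.14), the last lost without control 6% O2 replicate 1 or 3 or 2% O2 replicate 1 (up to 0.0815) and in a fit of the compared groups alone.

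Between the genotypes few of these genes differed in normoxia. In normoxia 1 of 9 was called higher and 0 lower in knockdown flies, beside 5.90% and 10.1% of all tested genes. This was the kinase gene Atg1 (FBgn0260945, chromosome 3L, 12784429 to 12805116, minus strand), with 36.4, 36.1 and 35.1 scaled FPKM in knockdown flies, against 32.9, 33.0 and 29.5 in control flies. The groups did not overlap and the difference was 0.17 ± 0.0499 (limma adjusted p = 0.0322), a call kept without control replicate 2 and lost without any other single library (adjusted p up to 0.164, at 0.12 without control replicate 3). Atg8a was at 90.6%, Atg9 at 92.9% and ref(2)P at 106% of the control mean, also with no overlap of the groups. None of these passed (limma adjusted p = 0.246, 0.214 and 0.156). The share of all tested genes separated in this way was not computed in any comparison. Of all calls in normoxia 36.8% were higher as given and 53.6% with quantile normalisation.

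At 6% O2 ref(2)P was called higher and Atg101 lower, beside 12.0% of all tested genes higher and 12.6% lower. The ref(2)P difference was small, with 202, 211 and 212 scaled FPKM in knockdown flies, against 189.9, 189 and 193 in control flies (0.12 ± 0.0424, limma adjusted p = 0.0435). It passed without knockdown 6% O2 replicate 1 but not without any of the 5 other libraries (adjusted p up to 0.139). The call was also lost with no filter (limma adjusted p = 0.0514), with quantile normalisation (0.0586) and with eBayes without both options (0.0507). In a fit of the compared groups alone it was lost too (0.0792). Atg101 had 16.0, 14.7 and 15.8 scaled FPKM in knockdown flies, against 20, 18.5 and 17.6 in control flies, with no overlap (-0.26 ± 0.0703, adjusted p = 0.0192). Its call was lost without control replicate 1 (-0.21) or knockdown replicate 2 (-0.22) and in a fit of the compared groups alone. Atg1 (0.13, limma adjusted p = 0.0590) and Atg9 (-0.15, adjusted p = 0.0581) did not pass, though their groups did not overlap either. Both passed with library weights, and Atg1 also with FPKM as deposited.

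At 2% O2 Atg8a, Atg9 and ref(2)P were called higher and Atg17 lower in knockdown flies, beside 11.7% of all tested genes higher and 8.50% lower. Their values per library are given above. In each of the 4 genes every knockdown library lay on the same side of every control library. This also held for Atg101, which was not called (92.7% of control, limma adjusted p = 0.324). The share of all tested genes separated in this way was not computed. Knockdown means were 131% of control for Atg8a (0.38 ± 0.0838, limma adjusted p = 0.00536), 122% for Atg9 (0.27 ± 0.0551, adjusted p = 0.00290), 129.9% for ref(2)P (0.38 ± 0.0424, adjusted p = 3.26e-05) and 84.6% for Atg17 (-0.23 ± 0.0535, adjusted p = 0.00711). In a fit of these 6 libraries alone Atg8a and Atg9 did not pass (adjusted p = 0.0654 and 0.0515). Of all calls 57.9% were higher as given and 43.6% with FPKM as deposited.

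Averaged over the 3 oxygen levels, ref(2)P (0.20 ± 0.0245, limma adjusted p = 3.08e-05) and Atg1 (0.12 ± 0.0288, adjusted p = 0.00367) were called higher in knockdown flies and Atg101 lower (-0.11 ± 0.0406, adjusted p = 0.0410). All tested genes were called higher in 20.2% and lower in 21.6%. The calls of ref(2)P and Atg1 were kept without any 1 of the 18 libraries. These averages hide unequal differences: ref(2)P was at 0.09 in normoxia, 0.12 at 6% O2 and 0.38 at 2% O2. For Atg1 the values were 0.17, 0.13 and 0.06. The Atg101 call was kept in 5 of the 18 fits that leave out a library and lost in the 13 others. Among control libraries it was kept without normoxia replicate 2, 6% O2 replicate 3 or 2% O2 replicate 1. Among knockdown libraries it was kept without 6% O2 replicate 1 or 2% O2 replicate 3. It was also lost with no filter (limma adjusted p = 0.0531) and with quantile normalisation (0.0756). In the genotype as written the driver and the transgene sit on the third chromosome, which carries 6 of the 10 genes (Atg1, Atg2, Atg18a, Atg8b, Atg13 and Atg17). Atg8a and Atg101 lie on X, ref(2)P on 2L and Atg9 on 2R.

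**Figure D3:**
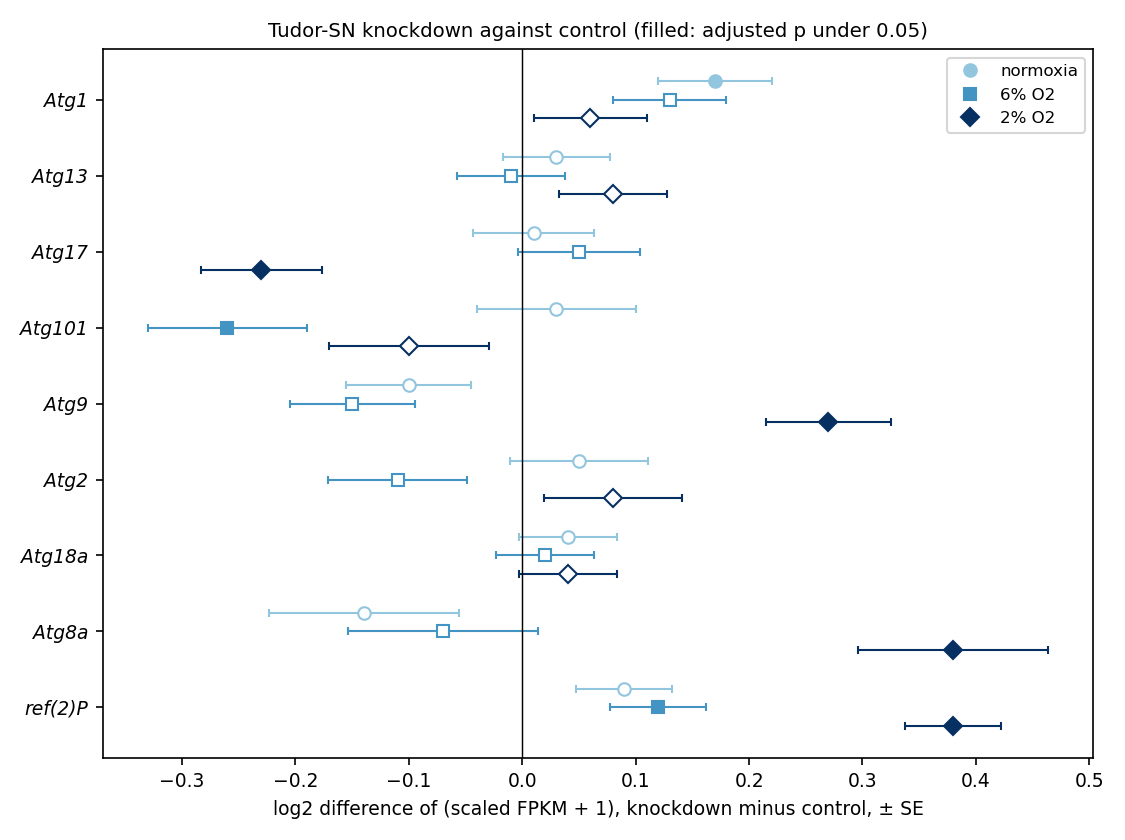
Log2 difference of scaled FPKM plus 1 between knockdown and control flies (horizontal axis, ± SE) for each tested gene, in normoxia (light circles), 6% O2 (squares) and 2% O2 (dark diamonds), with filled symbols for an adjusted p under 0.05. Atg8a and Atg9 lie left of 0 in normoxia and right of 0 at 2% O2 (0.38 and 0.27), whereas ref(2)P lies right of 0 at each level.

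Genes of the neighbouring steps are given here for 2% O2 against normoxia, as counts and medians per list, and the lists were not tested against each other or against other genes. Their counts stand beside 28.5% of all tested genes higher and 27.0% lower in knockdown flies, and 15.4% and 14.7% in control flies. In the conjugation machinery, which attaches Atg8a to lipid, 2 of 8 genes rose and 1 fell in knockdown flies, close to the share of all genes for a list of this size, and 2 rose and 0 fell in control flies. The E2-like enzyme Atg3 was at 58.2 scaled FPKM at 2% O2 and 48.7 in normoxia in knockdown flies (0.25 ± 0.0480, limma adjusted p = 0.000380), and the E1-like enzyme Atg7 at 16.0 and 20.1 (-0.31 ± 0.0673, adjusted p = 0.00110). In control flies the protease gene Atg4a rose (0.19, adjusted p = 0.00298), while in knockdown flies it stood at 0.06. Atg5 (0.10 in knockdown and 0.14 in control flies) and Atg16 (-0.01 and -0.03), parts of the complex that directs lipidation, passed in neither genotype. The list's median was 0.06 in both.

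The next list holds subunits of the complexes of the lipid kinase Vps34, which makes PI3P at the forming autophagosome, and genes that bind or act on phosphoinositides. In knockdown flies 5 of 8 genes rose and 1 fell, and in control flies 5 rose and 0 fell, with medians of 0.28 and 0.23. Atg18b, a PI3P-binding paralogue of Atg18a, was at 25.5 scaled FPKM at 2% O2 and 8.30 in normoxia in knockdown flies (1.51 ± 0.0935, limma adjusted p = 5.77e-09). In control flies it was at 17.6 and 9.05 (0.89 ± 0.0935, adjusted p = 6.00e-06), and the genotypes' responses differed by 0.62 ± 0.132 (adjusted p = 0.0114). Atg6, the fly Beclin, rose by 0.30 in both genotypes, and the kinase gene Pi3K59F itself by 0.26 in knockdown flies, a call lost without knockdown 2% O2 replicate 3 (0.22, adjusted p = 0.0539) or with FPKM as deposited (0.19) or quantile normalisation (0.05), and by 0.11 without passing in control flies.

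Of 12 fusion and tethering genes 3 rose and 2 fell in knockdown flies and 2 rose and 1 fell in control flies, shares of higher calls near those of all tested genes. Rab7, the GTPase of late endosomes, was at 246 scaled FPKM at 2% O2 and 156 in normoxia in knockdown flies (0.65 ± 0.0731, limma adjusted p = 2.47e-06) and at 244 and 173 in control flies (0.49 ± 0.0731, adjusted p = 0.000115). In the list of selective autophagy, 4 of 7 rose and 1 fell in knockdown flies and 1 rose and 0 fell in control flies. The gene in common was CG5059, the fly BNIP3 by the reference name table, a mitophagy receptor known in mammals as a target of hypoxia signalling. It was at 202 scaled FPKM at 2% O2 and 53.4 in normoxia in knockdown flies (1.89 ± 0.171, adjusted p = 5.48e-07) and at 155 and 58.6 in control flies (1.39 ± 0.171, adjusted p = 3.92e-05). The difference of 0.50 between these responses did not pass (adjusted p = 0.206).

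Of the lysosomal genes 9 of 18 rose in knockdown flies, beside 28.5% of all tested genes, and 7 of 18 in control flies, beside 15.4%, with 0 lower in either and medians of 0.25 and 0.14. The smallest p-values belonged to protease genes, with Cp1 (cathepsin L) at 0.62 in knockdown and 0.55 in control flies, CtsB1 (cathepsin B) at 0.73 and 0.57 and cathD (cathepsin D) at 0.48 and 0.35. The largest change was that of Cln3, the counterpart of a human lysosomal disease gene, named after its values were seen. It changed by 1.02 ± 0.239 in knockdown flies (limma adjusted p = 0.00227), and the control change was 1.34 ± 0.239 (adjusted p = 0.000712). The membrane protein Lamp1 stood at -0.01 and 0.07, neither of which passed (limma adjusted p = 0.910 and 0.502). Of 12 transcription factors tied to autophagy 6 rose and 3 fell in knockdown flies and 5 rose and 1 fell in control flies. The nuclear receptor gene Eip75B rose by 1.17 in knockdown and 0.82 in control flies. Mitf, the fly TFEB, which drives lysosomal genes, fell in knockdown flies (-0.23 ± 0.0692, adjusted p = 0.0104) and stood at -0.02 in control flies (adjusted p = 0.870), and the difference of -0.21 between these did not pass (adjusted p = 0.189).

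Among 17 genes of TOR and AMPK signalling, 7 rose and 5 fell in knockdown flies, beside 28.5% and 27.0% of all tested genes. In control flies 8 rose and 3 fell, beside 15.4% and 14.7%. Thor, the translation inhibitor 4E-BP that TOR holds back, rose by 2.21 ± 0.158 in knockdown flies (952 scaled FPKM at 2% O2 and 202 in normoxia, limma adjusted p = 3.96e-08) and by 1.52 ± 0.158 in control flies (711 and 247, adjusted p = 7.52e-06). Sesn, an inhibitor of TOR signalling, rose by 0.60 in knockdown and 0.46 in control flies. Tsc1, also an inhibitor of TOR, fell by 0.47 in knockdown and 0.25 in control flies. The medians of this list were 0.14 and 0.13. In the test of the difference of responses, 0 of these 17 genes, Thor among them, were called higher in knockdown flies and 2 lower. Of the other lists only the Vps34 list held a call (1 higher), so 0 of the 12 transcription factors were called. All tested genes were called higher in 5.43% and lower in 2.21%.

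**Figure D4:**
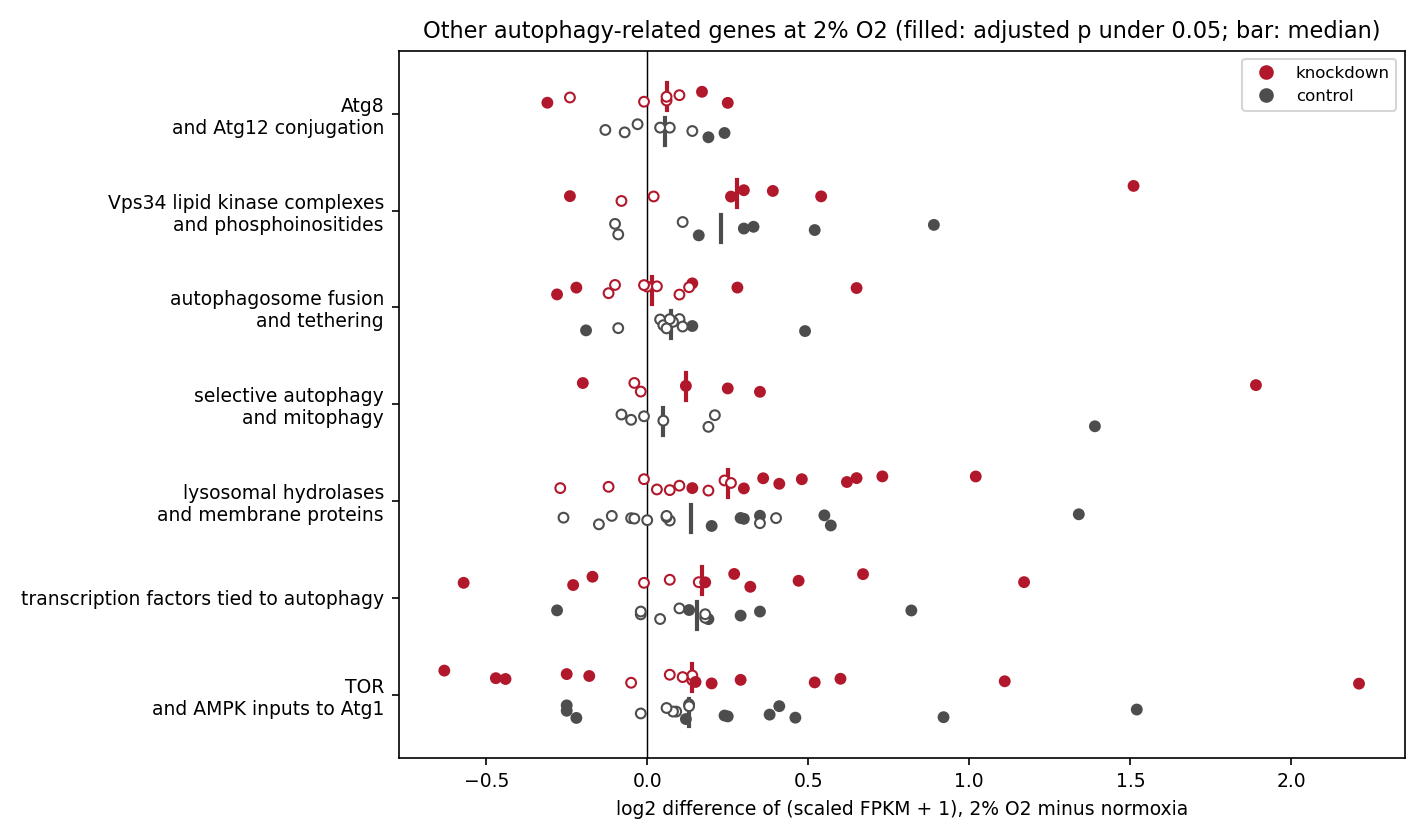
Log2 difference of scaled FPKM plus 1 between 2% O2 and normoxia (horizontal axis) for each gene of 7 lists around the 10 genes (rows), knockdown in red above control in grey, filled where the adjusted p was under 0.05, with a bar at each list's median. The Vps34 list has medians of 0.28 and 0.23, and single genes of the mitophagy and TOR lists lie far to the right (CG5059 at 1.89 and Thor at 2.21 in knockdown flies).

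The genes whose 6 group means followed Atg8a and ref(2)P most closely were found among 8139 genes averaging 5 FPKM or more, by the root mean square difference of log2 values centred on each gene's mean. For Atg8a these were Tspo (0.0294), a protein of the outer mitochondrial membrane, then Chd64, DPCoAC, AMPdeam and cu (0.0318 to 0.0556). Tspo had means of 399 scaled FPKM in knockdown and 314 in control flies at 2% O2, against 184 and 205 in normoxia. For ref(2)P they were the tubulin-folding cofactor TBCB (0.0216), then CG32638, RagA-B, CG33969 and CG10337 (0.0253 to 0.0296). RagA-B encodes a GTPase that brings TOR to the lysosome, with means of 51.0 in knockdown and 40.7 in control flies at 2% O2, against 36.7 and 35.5 in normoxia. CG10337 is the gene that overlaps ref(2)P, with means of 15.7 in knockdown and 11.6 in control flies at 2% O2. The part of shared reads in that likeness was not tested.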

How the data were processed

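The authors deposited 1 table per library with FPKM per gene, made with Cufflinks on build BDGP6, and TopHat2 and HTSeq are also named, per the submitters' processing notes. Versions are not given in the sources used here. Per the labels' protocols, poly-dT beads selected polyadenylated RNA, and the sequencer was a BGISEQ-500. FPKM is relative to all other transcripts of a library and carries no read total. In each library the 38 mitochondrially encoded genes stand at 0, so an exact 0 need not mean that a transcript was missing. Groups came from the sample titles.

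Each library was scaled by a median-of-ratios factor over 9068 genes above 1 FPKM in all libraries. The 9921 genes averaging 1 FPKM or more were fitted as log2(scaled FPKM + 1) by limma 3.58.1 (R 4.3.3) over all 18 libraries, with a mean for each of 6 groups and with the trend and robust options of eBayes. This scale understates changes of low genes. Benjamini-Hochberg adjustment ran over all fitted genes in each of 12 comparisons. The fit was also run on simulated data with independent noise and changes in a single group. Those data held no scaling shift and no uneven library quality, so they cannot test the fit for these. In each comparison the text names those of the 10 genes that were called and some that were not. From the lists of neighbouring genes (137 of 139 entries matched), the text names up to 4 called genes with the smallest adjusted p. A fixed set is also named for 2% O2 (Atg5, Atg7, Atg4a, Atg16, Pi3K59F, Mitf, Cp1, Lamp1 and BNIP3). Cln3 and Tsc1 were added by hand for 2% O2 against normoxia in both genotypes, whether or not that rule picked them. The genes, lists and rule were chosen with earlier results of these data known. Coordinates are those of the BDGP6 annotation, counted from 1. No column of other samples was present (0 not used). The alternatives changed the pseudocount (0.1 or 5), the filter (none, or an average of 5 FPKM), the scaling (none, or quantile normalisation) or the model (replicate block, compared groups only, eBayes without both options, library weights), or left out 1 library.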

Additional observations from a re-analysis of the deposited data

Results flagged for a closer look

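The responses of 3 autophagy genes to 2% O2 differed between the genotypes by a test of the difference itself (limma, adjusted over all tested genes). Atg8a rose more in knockdown than in control flies by 0.52 on the log2 scale, with changes of 1.11 in knockdown and 0.59 in control flies. Atg9 rose more by 0.37 (0.77 in knockdown and 0.40 in control flies). For ref(2)P the excess was 0.29 (0.49 in knockdown and 0.20 in control flies). The ref(2)P call was lost with quantile normalisation (0.16) and the Atg8a call without control 2% O2 replicate 1 (0.47). In normoxia, knockdown minus control was -0.14 for Atg8a and -0.10 for Atg9, neither of which passed, and these values enter the excess. Over all tested genes the median absolute change was also larger in knockdown flies (0.25) than in control flies (0.15). In all 3 genes each knockdown library at 2% O2 lay above each control library at 2% O2. The test used these same libraries, so this separation adds no further support. The share of all tested genes separated in this way was not computed. Groups of 3 libraries were too small for a search for single libraries that stand apart.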

How the results depend on the processing

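No called value of the 10 genes changed sign under any alternative run. Among recomputed values of single autophagy genes, 1777 kept their direction and call, 72 lost and 21 gained a call and 65 that were not called changed sign. The count of the 10 genes called moved by more than 1.5 times in 3 comparisons, and by less in others. For knockdown against control in normoxia it was 1, and 2 with quantile normalisation, 0 in a fit of only the compared groups, 2 with library weights, and 0 to 1 without single libraries. At 6% O2 it was 2, and 1 with no filter, 1 with quantile normalisation, 0 in a fit of only the compared groups, 1 with eBayes without both options, 4 with library weights, and 0 to 2 without single libraries. At 2% O2 it was 4, and 2 in a fit of only the compared groups. The cause was not tested. The estimate of library weights stopped before it reached its convergence tolerance.

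Counts over all tested genes moved by over 1.5 times for knockdown against control in normoxia (1589, and 614 to 3414 over the alternatives), at 6% O2 (2448, 892 to 3446) and at 2% O2 (2000, 1204 to 3898), for 6% O2 in knockdown flies (62, 9 to 386), and for the difference of responses to 2% O2 (758, 332 to 2371). Where 0 were called at 6% O2, alternatives gave up to 25 in control flies and up to 107 for the difference of responses. The share of higher calls at 2% O2 against 6% O2 in knockdown flies was 50.7%, and 39.2% with FPKM as deposited. For 6% O2 against normoxia in knockdown flies it was 93.5%, and 82.7% with quantile normalisation.

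Replicate numbers did not pair the libraries: residuals of same-numbered libraries correlated at a median of -0.01 (-0.32 to 0.25, 45 pairs), against 0.00 for other pairs. With the replicate block, the calls in normoxia between genotypes came to 1644 (1589 without it) and those at 2% O2 in knockdown flies to 5509 (5499 without it), while at 6% O2 in knockdown flies 31 genes were called (62 without it). Among the 10 genes the block lost only the Atg13 call for 2% O2 against 6% O2 in knockdown flies (adjusted p = 0.0668). Depth is known only in relative terms, and Atg8b, at or near 0, allows no comparison between groups.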
